A study of Mus musculus with 12 samples.

Results

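The Mof+/+ MOF ChIP-seq peak list from mouse visceral white adipose tissue (WAT) held 3651 peaks inside the bodies of protein-coding genes, away from any transcription start. A peak was counted when it lay on chromosomes 1 to 19, when its nearest edge was more than 3 kb from every annotated start site (GENCODE mouse M21), and when its summit fell inside a protein-coding gene. These gene-body peaks were 18.6% of the 19579 peaks on those chromosomes, and the whole list held 19773. A further 10903 peaks had an edge no more than 1 kb from a start site and are called promoter peaks, 2221 lay 1 to 3 kb away, and 2804 were more than 3 kb from a start and outside coding genes (distal peaks).

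MOF (KAT8) is the acetyltransferase that places most of the acetyl mark on lysine 16 of histone H4, a mark that loosens chromatin. It works in the MSL complex and in the NSL complex. The NSL complex is best known at promoters of housekeeping genes, and MOF has also been mapped to enhancers and along transcribed genes. Introns hold many enhancers, and the first intron of a gene is the one most often known for regulatory elements.

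The 12 libraries of the labels form 6 groups of 2. For both genotypes, wild type (Mof+/+) and Mof+/-, there is a group with MOF antibody (ab200660 in the labels, whereas the study's methods list others), a group with histone H3 antibody and a group of input. All animals were C57BL/6, aged 8 weeks and on standard diet, and the tissue was visceral WAT. Chromatin was cut with CviKI-1, an enzyme that cuts at RGCY (R a purine, Y a pyrimidine), and then sonicated. The design text names 2 control and 3 Mof+/- animals, whereas the labels give 2 replicates for each genotype. There is 1 peak list per genotype with no column for a replicate, so no value from these lists has a replicate error, and no test between animals was made. Intervals are 95% intervals (Wilson for shares, exact Poisson for densities, conditional binomial for ratios of densities) and cover counting error only. Peaks of one gene or one list are not replicates. WAT is a mixed tissue, and in a bulk list more cells of one type cannot be told apart from more MOF per cell. Of all coding genes, 42.7% had a promoter peak. Of 20 adipocyte marker genes, 14 had one, among them Adipoq and Plin1, while Lep, Fabp4, Cidec, Pparg, Cd36 and Retn had none. By ChIP-qPCR in WAT, the paper found MOF at the promoter of the main Pparg isoform. It detected no enrichment at Glut4 (Slc2a4), which had a promoter peak in this list. A promoter without a called peak is thus not shown to lack MOF. A promoter peak was present at 17 of 20 B cell genes and 13 of 20 T cell genes, and at 2 of 20 macrophage, 3 of 20 endothelial, 5 of 20 fibroblast or adipocyte progenitor, 1 of 20 neuronal and 1 of 10 mesothelial genes. The T cell genes Cd4 and Zap70 had none.

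The sequences under a few summits show what such sites look like. Each is the summit base of GRCm38.p6 with 50 bases on each side, read on the plus strand. Each summit lay in an intron of the chosen transcript of its gene (the principal one by annotation). Capitals mark letters that match any of 13 transcription factor motifs searched on both strands. The peaks in Foxp1, Ets1 and Ikzf1 are the strongest in introns of the chosen transcript of 3 of the genes with the most gene-body peaks, and Foxp1 had stronger ones upstream of that transcript. Foxo1 is the insulin signalling gene with the most, and the Prr7 and Prdm2 peaks were among the strongest of all.
Foxp1, chr6:99261152-99261252: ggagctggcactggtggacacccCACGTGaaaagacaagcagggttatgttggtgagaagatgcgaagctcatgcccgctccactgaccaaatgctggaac
Ets1, chr9:32746137-32746237: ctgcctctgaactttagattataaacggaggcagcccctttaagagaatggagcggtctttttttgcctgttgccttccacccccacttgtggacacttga
Ikzf1, chr11:11711869-11711969: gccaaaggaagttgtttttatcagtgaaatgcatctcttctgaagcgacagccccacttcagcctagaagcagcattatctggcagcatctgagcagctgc
Foxo1, chr3:52290933-52291033: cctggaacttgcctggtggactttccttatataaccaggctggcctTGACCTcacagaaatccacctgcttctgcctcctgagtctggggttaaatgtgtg
Prr7, chr13:55471580-55471680: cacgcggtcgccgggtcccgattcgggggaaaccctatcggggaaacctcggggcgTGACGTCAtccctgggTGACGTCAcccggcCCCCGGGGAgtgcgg
Prdm2, chr4:143161933-143162033: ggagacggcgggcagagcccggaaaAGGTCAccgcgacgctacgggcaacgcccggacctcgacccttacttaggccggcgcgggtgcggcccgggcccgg

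The windows fell into CpG-poor and CpG-rich sequence. The Prr7 window held 14 CpG sites at 72.3% GC, with 2 matches to the cyclic AMP response element (CRE) and an EBF match, and the Prdm2 window held 16 CpG sites at 75.2% GC. Those of Foxp1, Ets1, Ikzf1 and Foxo1 held 0 to 3 CpG sites. The Foxp1 window had an E-box, and the Foxo1 and Prdm2 windows each had a nuclear receptor motif. The windows of Ets1 and Ikzf1 matched none of the 13 motifs.

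Gene-body peaks were weaker and narrower than promoter peaks. Fold enrichment is the ratio of fragments at the summit to the local background, with 1 added to both, as the peak caller gives it. Its median was 3.10 in gene bodies (interquartile range 2.79 to 3.54, highest 7.96), and 3.76 at promoters (3.10 to 4.57). The median width was 487 bp against 740 bp. The fold enrichment and p-value of a peak together fix its fragment count, which was recovered for all 3651 peaks. The median was 14 fragments at the summit (13 to 16) over a background of 3.63, against 18 fragments (15 to 21) at promoters. The depth at a single gene-body summit is thus low. Only 2.33% of gene-body peaks were in the most significant 10% of the list, against 15.6% of promoter peaks. At a q-value of at most 0.01, 62.9% of gene-body peaks and 85.3% of promoter peaks were left. Gene-body peaks were close to distal peaks, whose median fold enrichment was also 3.10 (2.88 to 3.62).

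To ask where in the gene the peaks lay, each summit was placed in one transcript per gene, the principal one by annotation. Most were intronic. Introns held 3023 (82.8%, interval 81.5 to 84.0%), exons 334 (9.15%, 8.26 to 10.1%), and 294 (8.05%) lay inside the gene but outside the chosen transcript, 205 of them upstream of its start. These shares need the amount of sequence that could hold a peak, namely coding-gene sequence more than 3 kb from any start, 766.5 Mb in all. Exons were 4.71% of it. Exonic peaks therefore came to 9.25 per Mb (8.29 to 10.3) and intronic peaks to 4.59 per Mb (4.43 to 4.75), a ratio of 2.02 (1.80 to 2.26). The median fold enrichment was 3.10 in exons and 3.10 in introns, and the median width was 499 and 486 bp.

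**Figure D1:**
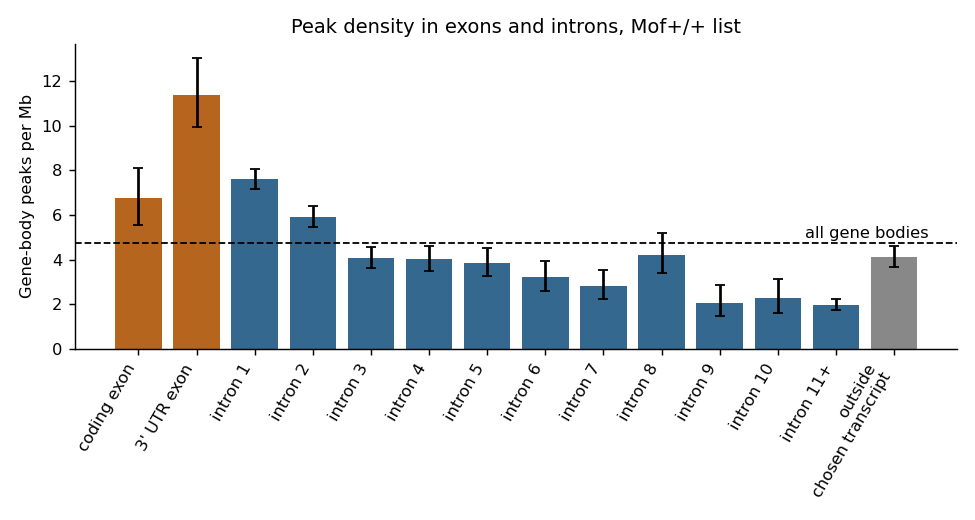
Gene-body peaks of the Mof+/+ list per Mb of coding-gene sequence more than 3 kb from any start, for coding exons, 3′ UTR exons, introns by their rank in the chosen transcript and sequence outside that transcript; bars are densities, error bars exact Poisson 95% intervals, and the dashed line is 4.76 per Mb over all gene bodies. 5′ UTR exons, with 3 peaks, are not drawn. Among the classes drawn, density was highest in 3′ UTR exons (11.4), and among introns it fell from 7.60 in intron 1 to 1.97 in introns 11 and later.

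The exonic excess was larger in 3′ untranslated regions than in coding exons. The 3′ untranslated regions held 218 peaks at 11.4 per Mb (9.94 to 13.0), 2.49 times the intron density (2.16 to 2.85). Coding exons held 113 peaks at 6.74 per Mb (5.56 to 8.11), 1.47 times the intron density (1.21 to 1.77). Only 3 summits were in 5′ untranslated exons, of which just 0.215 Mb was far enough from a start, and their density of 13.96 per Mb had an interval of 2.88 to 40.8. The exon to intron ratio was 1.47 (1.15 to 1.87) less than 10 kb from the gene start, 1.45 (1.19 to 1.75) at 10 to 30 kb, 1.63 (1.32 to 2.01) at 30 to 100 kb and 2.63 (1.78 to 3.77) beyond 100 kb. The ratio was thus above 1 at every distance, and below the pooled 2.02 within 100 kb. CpG-rich sequence was commoner under exonic summits: 30 of 334 (8.98%) had CpG-island-like sequence, against 6 of 1175 (0.511%) in first introns and 11 of 1848 (0.595%) in later introns. Its part in the exon density was not tested.

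First introns were denser in peaks than later ones. They held 1175 peaks (32.2%, 30.7 to 33.7%) in 20.2% of the eligible sequence, at 7.60 per Mb (7.17 to 8.05), and later introns held 1848 (50.6%) in 65.8%, at 3.66 per Mb (3.498 to 3.83). The ratio was 2.08 (1.93 to 2.23). Density stepped down with intron rank, to 5.92 per Mb in intron 2 (5.46 to 6.40) and 4.09 in intron 3 (3.64 to 4.58). The intervals of introns 3, 4 and 5 overlapped, and intron 8 was an exception to the order at 4.21 (3.38 to 5.19), although its interval overlapped that of intron 7 (2.21 to 3.52). From intron 9 on, density was near 2 per Mb, with 1.97 (1.74 to 2.23) in introns 11 and later.

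Part of this difference went with distance from the gene start. At less than 10 kb, first introns held 10.4 peaks per Mb and later introns 6.02, a ratio of 1.73 (1.44 to 2.09). At 10 to 30 kb it was 1.66 (1.47 to 1.89), on 494 and 514 peaks. At 30 to 100 kb it fell to 1.15 with an interval that includes 1 (0.991 to 1.32). Beyond 100 kb it was 1.28 (0.960 to 1.69), and this value rested on 1 gene model: Gm20388, a readthrough locus of 4435 kb on chromosome 8, gave 28 of the 59 first-intron peaks there. Without Gm20388 in the annotation the ratio beyond 100 kb was 0.749 (0.502 to 1.08). The ratio at 30 to 100 kb was then 1.18, with an interval that no longer includes 1 (1.02 to 1.36), and the pooled ratio stayed within its interval.

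**Figure D2:**
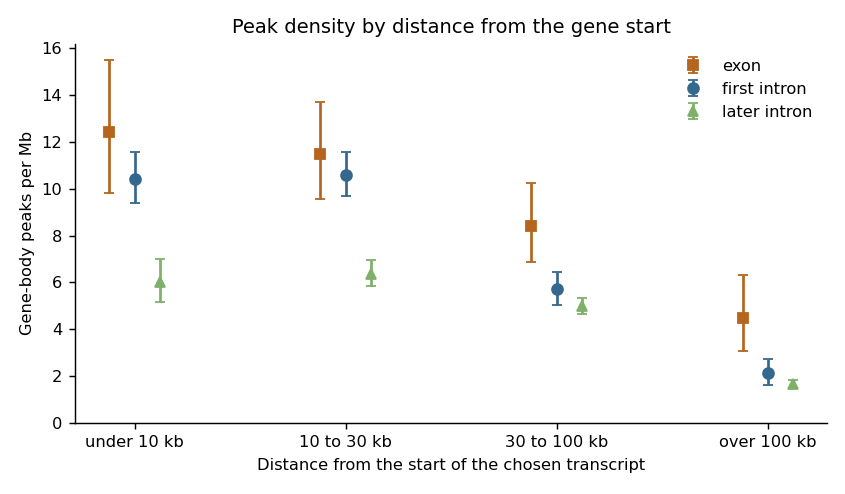
Gene-body peaks per Mb in exons (squares), first introns (circles) and later introns (triangles) by distance of the summit from the start of the chosen transcript; error bars are exact Poisson 95% intervals. First introns lie above later introns below 30 kb (10.4 against 6.02 per Mb under 10 kb), and the 2 come close from 30 kb on (5.71 against 4.98).

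Along the gene the peaks were spread from end to end. The median summit sat at 48.9% of the gene length (interquartile range 26.0 to 76.0%). The first 50% of the gene held 51.3% of the peaks (49.7 to 52.9%) and 48.6% of the eligible sequence. When genes were cut into 10 equal stretches, density was highest in stretch 2 (5.77 per Mb, 5.25 to 6.33) and in stretch 10, at the gene end (5.62, 5.11 to 6.16). It was lowest in stretch 6 (3.87, 3.45 to 4.33) and nearly as low in stretch 1, at the gene start (3.97, 3.46 to 4.53). The 3 kb limit leaves eligible sequence in stretch 1 only for longer genes, so the stretches do not compare the same genes. The intervals of stretches 2 and 10 do not overlap those of stretches 6 to 9. The median distance to the nearest start of any transcript was 9170 bp (5262 to 17292), and the median distance from the start of the chosen transcript was 25906 bp (10893 to 61497).

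**Figure D3:**
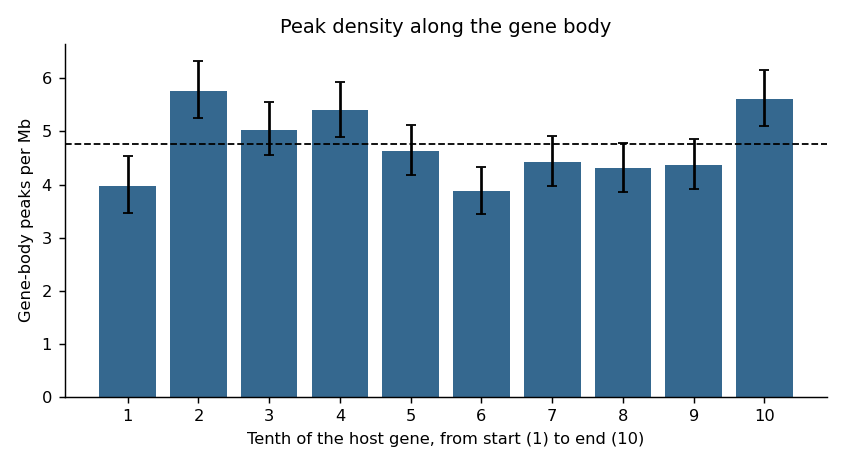
Gene-body peaks per Mb in 10 equal stretches of the host gene, from its start (1) to its end (10); error bars are exact Poisson 95% intervals and the dashed line is 4.76 per Mb over all stretches. Density is highest in stretches 2 (5.77) and 10 (5.62) and lowest in stretches 6 (3.87) and 1 (3.97).

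The peaks fell in 1450 host genes. Of the 16524 coding genes with eligible sequence, 8.78% hosted a peak. Many hosts, 792 (54.6%), held 1 peak each. At the other end, 185 genes with 5 or more peaks held 44.4% of all gene-body peaks, and 49 genes with 10 or more held 20.6%. Hosts were long, with a median of 61.9 kb (28.2 to 117.3) against 25.6 kb for all eligible genes. Peaks sat close together: 61.5% had another gene-body summit within 10 kb, and the median distance to the nearest one was 4547 bp. The median fold enrichment was 3.10 both for lone peaks and for those in hosts of 10 or more. Exonic peaks were commoner among lone peaks, at 18.2% (15.7 to 21.02%), against 3.59% (2.48 to 5.17%) in hosts of 10 or more. Hosts of lone peaks were shorter (median 48.9 against 120.7 kb), and lone peaks were nearer a start (median 6314 against 12786 bp). The shares were not set beside the exonic sequence of each host group. The density varied by chromosome from 3.37 per Mb on chromosome 13 to 9.36 (8.46 to 10.3) on chromosome 11.

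Host genes mostly had MOF at their promoter as well. Of 1450 hosts, 1161 (80.1%, 77.9 to 82.0%) had a peak within 1 kb of one of their own starts, against 44.9% of all eligible coding genes and 41.5% (40.7 to 42.3%) of those with no gene-body peak. The gap was present in each of 5 length classes of equal size. In the shortest, 66.7% of hosts and 28.7% of other genes had a promoter peak, and in the longest, genes of 73.7 kb and more, 80.0% and 37.4%. In that longest class, genes with a promoter peak held 9.46 gene-body peaks per Mb and those without 0.651, a ratio of 14.5 (12.7 to 16.6). In the other 4 classes the ratio was 5.39 to 7.47. The promoter peak was the stronger one in 937 of the 1161 hosts (80.7%), set against the strongest gene-body peak of the same gene. With more peaks in the body the share with a promoter peak was higher, from 74.1% of hosts with 1 peak to 92.6% with 5 to 9 and 93.9% with 10 or more.

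Of the 10 genes with the most peaks, 4 encode lymphoid transcription factors: the forkhead factor Foxp1, the repressor Bach2, Ets1, and Ikzf1 (Ikaros). Foxp1 on chromosome 6 (597.4 kb) held 55 peaks, at 108.5 per Mb. Of these, 38 were in later introns, 1 in the first intron, 1 in an exon, and 15 up to 186.7 kb upstream of the chosen transcript's start, inside longer transcripts. Their fold enrichment ran from 2.38 to 5.31, below the 6.64 of the promoter peak. Bach2 on chromosome 4 held 27 peaks with fold enrichment of 2.44 to 5.74, 9 of them in the first intron. Ets1 held 25 in 121.6 kb, with 8 in the first intron and 12 in later ones. Ikzf1 held 22 in 87.9 kb, 19 of them in later introns, with fold enrichment no higher than 3.83 against 6.38 at its promoter. Ets1 at 235.4 per Mb and Ikzf1 at 283.9 per Mb were thus denser than the longer Foxp1 and Bach2 (88.0 per Mb).

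**Figure D4:**
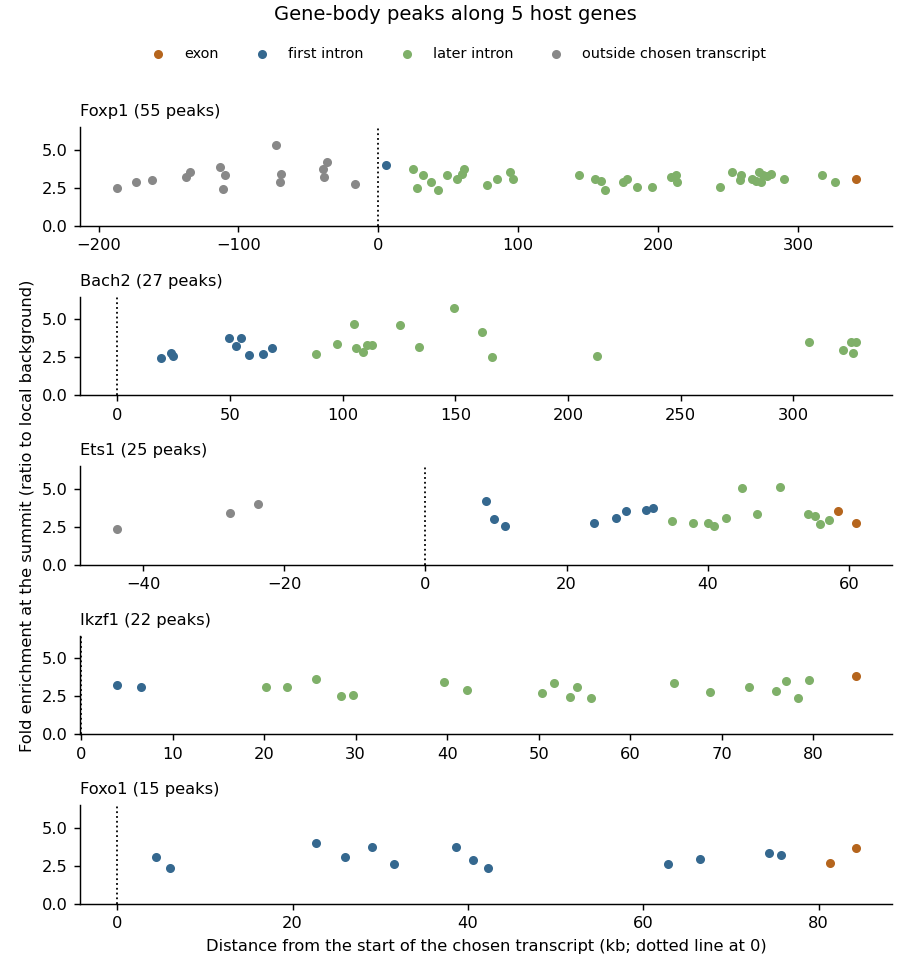
Each point is a gene-body peak in Foxp1 (55), Bach2 (27), Ets1 (25), Ikzf1 (22) or Foxo1 (15), placed by its distance in kb from the start of the chosen transcript (dotted line) and by its fold enrichment; colours give exon, first intron, later intron and sequence outside the chosen transcript. Foxp1 and Ets1 have peaks upstream of that start (15 and 3), and 13 of the 15 Foxo1 peaks are in its first intron.

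The other genes of the 10 were of mixed function. Ubac2, an endoplasmic reticulum protein gene on chromosome 14, held 31 peaks at 258.1 per Mb. The receptor genes Gpr18 and Gpr183 lie inside it on the other strand and both had promoter peaks, so a peak counted in Ubac2 may be nearer to them. Sgms1, which encodes a sphingomyelin synthase, held 20 peaks, 19 in later introns, and its strongest (5.09) was above its promoter peak (4.65). Stk10, a kinase of lymphocytes, held 19 at 230.9 per Mb. Grap2, the T cell adaptor GADS, held 19 at 318.8 per Mb, 13 of them outside the chosen transcript. Akap13, a kinase anchor, held 19 over 299.1 kb. Gm20388 held 28, of which 20 also lay in other coding genes and were given to it as the longest gene: 10 in Ankrd11, 6 in Galnt2 and 4 in others. The remaining 8 lay in no other coding gene.

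Lists of genes typical of cell types and pathways were set beside the 8.78% of all eligible genes that hosted a peak, and beside 4.65 peaks per Mb of eligible body. The lists also differ in gene length and in promoter peaks, and neither was adjusted for. Among genes of 73.7 kb and more with a promoter peak, 33.3% (31.0 to 35.7%) were hosts, with 9.46 gene-body peaks per Mb. Among shorter genes with a promoter peak, 8.04% of those of 10.1 to 19.1 kb were hosts, with 19.3 per Mb. For genes of 19.1 to 34.4 kb with a promoter peak these values were 10.8% and 15.0 per Mb. The lists were chosen with earlier results of these data known, so their order is descriptive and no independent result. Lymphoid transcription factors stood highest: 22 of 26 (84.6%, 66.5 to 93.9%) hosted 231 peaks, at 74.4 per Mb, with Foxp1, Bach2, Ets1 and Ikzf1 first. These genes had a median length of 104.1 kb against 25.6 kb for all eligible genes, and 27 of the 27 listed had a promoter peak, against 42.7% of all coding genes. Without the 10 top hosts the density of the list was 48.4 per Mb. Of B cell genes, 7 of 16 (43.8%, 23.1 to 66.8%) hosted 56 peaks, at 54.8 per Mb. Bach2 held the most, followed by Ikzf3 (Aiolos) with 11, the B cell scaffold Bank1 with 5 and Ralgps2, Pax5 and Blnk with 4 each. Of T cell genes, 7 of 18 (38.9%, 20.3 to 61.4%) hosted 36 peaks, at 35.5 per Mb: Lef1 and Bcl11b, both T cell transcription factors, with 8 each, and Tcf7 with 6 among the others. The intervals of the B and T cell shares include the 33.3% of long genes with a promoter peak. The B and T cell lists share genes with the lymphoid list: Bach2, Ikzf3 and Pax5 gave 42 of the 56 B cell peaks, and Lef1, Bcl11b and Tcf7 gave 22 of the 36 T cell peaks. Median lengths of the B and T cell lists were 33.1 and 29.7 kb, and 85% and 65% of their genes had a promoter peak. The lymphoid, B and T cell lists together (61 genes) held 259 gene-body peaks, 7.09% of all in 0.562% of the eligible sequence.

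**Figure D5:**
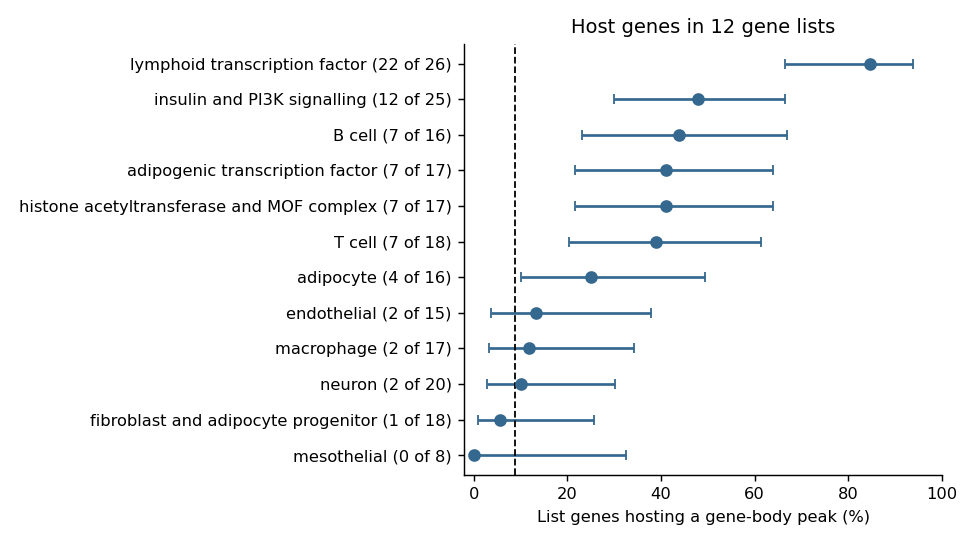
Share of the genes of each of 12 lists that hosted a gene-body peak, among list genes with eligible sequence (counts in brackets); bars are Wilson 95% intervals and the dashed line is the 8.78% of all eligible coding genes. Lymphoid transcription factors are at 84.6% and mesothelial genes at 0. The lists were chosen with earlier results of these data known.

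Adipocyte genes held 5 peaks in all. Of 16 eligible adipocyte genes, 4 (25.0%, 10.2 to 49.5%) hosted them, at 9.85 per Mb. These genes are short, with a median length of 13.5 kb and 0.508 Mb of eligible sequence, and 70% had a promoter peak. Scd1, the stearoyl-CoA desaturase, had 2 peaks, 1 in its 3′ UTR exon and 1 in intron 5, both at a fold enrichment of 3.54 on 15 fragments. Cidec, which controls lipid droplet size, had 1 in intron 5 (3.10), the lipase gene Lpl had 1 in intron 4 (3.10), and Dgat2, of triglyceride synthesis, had 1 in intron 4 (2.88). Of adipogenic transcription factors, 7 of 17 (41.2%) hosted 17 peaks, at 7.45 per Mb. Their median length was 113.5 kb and 65% had a promoter peak, and the interval of their share (21.6 to 64.0%) includes the 33.3% of long genes with a promoter peak. Ebf1 held 7 and is also on the lymphoid list, Mef2d held 5, all in its first intron, and Mef2c, Nfia, Stat5a, Stat5b and Nr3c1 had 1 each. Adipocyte and adipogenic lists together (38 genes) held 22 gene-body peaks, 0.603% of all in 0.342% of the eligible sequence.

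Genes of insulin and PI3-kinase signalling held 41 peaks, at 15.2 per Mb, and 12 of 25 were hosts (48.0%, 30.0 to 66.5%). Their median length was 87.7 kb and 88% had a promoter peak, and the interval includes the 33.3% of long genes with a promoter peak. Foxo1, the transcription factor that insulin signalling switches off, held 15 peaks at 200.6 per Mb, with fold enrichment of 2.38 to 3.98. Inpp5d (SHIP1) and Pik3cd, the leukocyte PI3-kinase subunit, held 6 each, and Pik3r1, the regulatory subunit, held 3. At the top of the pathway, the insulin receptor gene Insr had 1 peak in intron 2 (chr8:3221263-3221965, fold enrichment 5.09, 22 fragments) and Irs1, its docking protein, had 1 in intron 1 (chr1:82282593-82283650, 4.25, 19 fragments). Both were CpG-island-like. Of histone acetyltransferase and MOF complex genes, 7 of 17 (41.2%) hosted 15 peaks: the coactivator Ncoa3 held 6, Kansl1, a scaffold of the NSL complex, held 3, Ncoa2 held 2 and Ncoa1 held 1. The median length of this list was 80.6 kb and 95% of its genes had a promoter peak, and its interval (21.6 to 64.0%) also includes 33.3%.

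The intervals of the remaining lists all included the 8.78% of all genes. Endothelial genes were 2 of 15 (13.3%), with 9 peaks in Pecam1 and 1 in Vwf. Macrophage genes were 2 of 17 (11.8%), with 1 peak each in Cx3cr1 and Spi1. Fibroblast and progenitor genes were 1 of 18, the peptidase gene Dpp4 with 3 peaks. None of 8 mesothelial genes hosted a peak, which leaves a share of up to 32.4%. Neuronal genes were 2 of 20, Camk2a among them, and, being long, had 0.137 peaks per Mb of their 14.6 Mb. The part of lymphoid cells in these counts was not tested.

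The strongest gene-body peaks were few and of several kinds. Prr7, which encodes a membrane adaptor, had the highest fold enrichment (7.96, 35 fragments), in its first intron and in a peak of 6744 bp. The chromatin remodeller gene Chd2 followed at 7.52 (33 fragments) in intron 2 of 38. Snn reached 7.29 in a 5′ UTR exon and Prdm2, of the PRDM zinc finger family, 6.64 in intron 6. The homeobox gene Shox2 reached 6.42 in its 3′ UTR exon. Hvcn1, a proton channel gene of immune cells, had 2 of the 12 strongest, at 6.38 in a peak of 10587 bp in intron 3 and at 6.17 in its 3′ UTR exon. Ppp1r16b, a phosphatase subunit gene, had one at 6.19, and Stard5, of sterol transport, one at 6.17 in its 3′ UTR exon. B4galnt1, of ganglioside synthesis, Rad51b, of DNA repair, and Fnbp1, of membrane curving, followed at 5.97 with 26 fragments each. Foxk1 and Vamp1 tied with these. Of the 12, Prr7, Prdm2, Shox2 and B4galnt1 were CpG-island-like. The Rad51b peak was far from any start, at 277091 bp. Among exonic peaks Snn, Shox2, Hvcn1 and Stard5 were followed by Ccr7, the lymph node homing receptor gene, at 5.70 in its 3′ UTR exon.

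Few gene-body peaks were called in Mof+/- WAT. A peak is called retained when a Mof+/- peak overlapped it by at least 1 bp. Of all Mof+/+ peaks on chromosomes 1 to 19, 2.44% were retained. Of gene-body peaks, 19 of 3651 were (0.520%, 0.333 to 0.811%), against 3.16% of promoter peaks, 2.75% of those 1 to 3 kb from a start and 1.89% (1.45 to 2.46%) of distal peaks. When the summit had to lie inside the Mof+/- peak, the shares were 0.274% (0.149 to 0.503%) in gene bodies, 1.94% (1.69 to 2.21%) at promoters and 1.28% (0.929 to 1.77%) at distal peaks. With an overlap of 50% of both peaks they were 0.110% (0.0426 to 0.281%), 0.688% (0.549 to 0.861%) and 0.606% (0.379 to 0.969%), so the gene-body share remained the lowest of these. With an overlap of 1 bp, the gene-body share was 2.63 percentage points below the promoter share (2.21 to 3.03, Newcombe interval) and 1.37 points below the distal share (0.840 to 1.97). The shares were also taken at like strength, in bands chosen after seeing the data, since peaks with a fold enrichment of 4 or more were retained most often in each category. Below a fold enrichment of 3 they were 0.135% (0.0369 to 0.489%) in gene bodies and 1.88% (1.37 to 2.59%) at promoters. From 3 to 4 they were 0.444% (0.225 to 0.873%) and 1.65% (1.32 to 2.06%), and from 4 on 2.49% (1.31 to 4.66%) and 5.39% (4.75 to 6.10%). The gene-body share was the lower one in each band, and its interval did not overlap that of promoters. Distal peaks were retained at 0.657% (0.319 to 1.35%), 1.76% (1.18 to 2.60%) and 5.90% (3.93 to 8.77%) in the same bands, and their intervals overlapped those of gene bodies below 3 and from 4 on. Seen from the other list, 60 of 712 Mof+/- peaks (8.43%) met the gene-body rule, and 23 of those 60 (38.3%, 27.1 to 51.0%) overlapped a Mof+/+ gene-body peak. Of the same 60, 39 (65.0%, 52.4 to 75.8%) overlapped a Mof+/+ peak of any kind, against 603 of all 712 (84.7%, 81.9 to 87.1%). The Mof+/- list had a lower lowest background (2.26 against 3.52 fragments), so fold enrichment is not on one scale in the lists. Whether depth or MOF differed cannot be told apart from 1 list each.

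Retained gene-body peaks were stronger and wider than the rest, with a median fold enrichment of 3.92 (3.52 to 4.74) against 3.10 and a median width of 1730 bp against 486 bp. A wider peak is more likely to meet an overlap of 1 bp, so the difference in width is in part set by the rule. Chd2 headed them, with a Mof+/- peak of 15 fragments whose summit lay 122 bp away. Shox2 had 2 Mof+/- peaks over it and Bcl9l, a Wnt pathway coactivator, had 1. Next were Ostm1, a lysosomal protein gene (fold enrichment 5.26), Tbr1, a T-box factor gene (4.83), Cflar, an inhibitor of caspase-8 (4.65), and Coro2a, a coronin with 2 retained peaks in its first intron (4.42 and 3.54). Sim1, Irx5 and Plag1, which encode developmental transcription factors, followed at 4.09, 4.09 and 3.92. In Cflar, Irx5 and Bcl9l the Mof+/- summit was 3252, 2902 and 1352 bp from the Mof+/+ summit, so an overlap need not be the same site. Of the 19 retained peaks, 10 had their summit inside the Mof+/- peak. The remaining retained peaks were in Gata4, Pou3f2, Sim2, Ttpal, Tpcn1, Mark2, Ski and Nudcd3. By place, 5 of 334 exonic peaks (1.497%), 7 of 1175 in first introns (0.596%), 4 of 1848 in later introns (0.216%) and 3 of 294 outside the chosen transcript (1.02%) were retained. Hosts of 10 or more peaks held 1 retained peak among 752 (0.133%, 0.0235 to 0.749%), an interval that includes the 0.520% of all gene-body peaks.

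In base composition, gene-body peaks lay closer to distal peaks than to promoter peaks. Over 250 bp on each side of the summit, gene-body peaks had a median GC content of 48.3% (44.5 to 51.9%), against 48.5% at distal peaks, 59.9% at promoter peaks and 42.3% over a grid of 152791 gene-body windows. CpG sites numbered 11.98 per kb, against 61.9 at promoters and 7.98 over the grid. CpG-island-like sequence (GC of at least 50% and observed over expected CpG of at least 0.6) was under 51 of 3651 summits (1.40%, 1.06 to 1.83%), against 59.7% at promoters, 4.67% at distal peaks and 0.202% over the grid. Those 51 were stronger, with a median fold enrichment of 3.54 against 3.10, nearer to a start (5322 against 9256 bp), and in exons in 58.8% of cases. Repeat-masked sequence covered 18.5% of bases within 100 bp of gene-body summits and 28.3% over the grid. The cut sites of CviKI-1, RGCY, were also denser, at a median of 19.9 per kb against 14.9, and their part in where peaks were called was not tested.

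Motif letters were counted within 100 bp of each summit, on both strands. The ETS core CCGGAAG was in 1.42% of gene-body windows (1.09 to 1.86%) and 0.545% of the grid, a ratio of 2.62. GC boxes (GGGCGGG) were in 2.30% and 0.893%, the CTCF letters AGGGGGC in 3.62% and 1.61%, and the E-box CACGTG in 4.03% and 2.30%. The EBF letters TCCCNNGGG were in 3.45% and 2.00%, and the PU.1 letters GAGGAAG in 10.2% (9.25 to 11.2%) and 6.24%. Smaller differences were seen for RUNX (TGTGGTT, 6.30% and 4.80%) and the nuclear receptor motif AGGTCA (13.4% and 11.5%). AP-1 (TGANTCA, 5.67% and 6.08%), forkhead (TGTTTAC, 3.23% and 3.06%) and CRE (TGACGTCA, 0.137% and 0.1198%) had grid shares inside the interval of the gene-body share. C/EBP (TTGCNNAA, 7.53% and 8.76%) and IRF (GAAANNGAA, 5.81% and 7.51%) letters were less common than over the grid. Distal peaks had shares near those of gene-body peaks for ETS (1.498%), PU.1 (10.3%), CTCF (3.602%) and EBF (3.32%), and promoter peaks had higher ones for ETS (5.97%) and the GC box (16.5%). For the GC box (3.42%, 2.81 to 4.16%) and IRF (7.10%, 6.20 to 8.11%), distal peaks had higher shares than gene-body peaks. The grid is poorer in GC than the summits, and the motif shares were not adjusted for it. Without the CpG-island-like peaks the ETS ratio was 2.65 and the GC box ratio 2.33.

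The 3 kb limit cut through a continuous range of distances. Just inside it were peaks in Slc43a2 and Cdkn2a (3001 bp, fold enrichment 2.90 and 2.65) and Klf13 (3004 bp, 3.10). Just outside were peaks in Tdrp (2997 bp, 2.71) and Lbh (2995 bp, 3.98). The 451 gene-body peaks at 3 to 4 kb had a median fold enrichment of 3.10, as had the 644 peaks in coding genes at 2 to 3 kb, and 0.665% and 1.86% of them were retained.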

How the data were processed

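The processed data were 2 narrow peak lists, 1 for each genotype, assigned by list name. The authors mapped reads to GRCm38 (snakePipes) and called peaks against input at a q-value of 0.1 (MACS2 2.1.1.20160309.3). The deposited fold enrichment is a ratio of fragments at the summit to background, and the −log10 values deposited beside it are the p-value and q-value of that summit. The score column deposited by the authors was not used. Pooling of replicates before calling is not given in the sources used here. The authors' methods merge peaks within 1000 bp, but in the deposited Mof+/+ list 3796 neighbouring pairs are that close, so the lists are unmerged. H3 libraries and signal tracks were not analysed here. Fragments were solved from fold and p-value within a tolerance of 0.002 on the −log10 scale.

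Genes were GENCODE M21 and sequence GRCm38.p6. A summit in an exon was given to that gene, and otherwise to the longest coding gene over it; 160 summits (4.38%) lay in more than 1. Python (numpy, pandas, scipy 1.17.1) gave counts and intervals, with functions tested on simulated data. Members and gene lists were chosen with earlier results of these data known. Named genes were hosts of the 12 strongest peaks, the 10 hosts with most peaks, the 10 strongest retained peaks, the 5 strongest exonic peaks, up to 4 genes per list and the peaks nearest the limit; further genes were named after their values were seen. Some genes and sequences are not reported here.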

Additional observations from a re-analysis of the deposited data

Results flagged for a closer look

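Chromosomes X and Y lie outside the comparisons above and carried 19 and 5 gene-body peaks by the same rule, a signal in data not otherwise used. Those on chromosome X came to 0.502 per Mb of eligible sequence (0.302 to 0.783), below the 3.37 to 9.36 per Mb of chromosomes 1 to 19. Those on chromosome Y came to 1.87 per Mb (0.608 to 4.37), with an interval that overlaps that range. The difference from the other chromosomes was not tested.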

How the results depend on the processing

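No paired analysis was possible because the 2 peak lists used here carry no replicate columns; signal tracks were not analysed here. Of 62 alternatives computed, 52 left the value inside its interval, or a count within 1.5 times. With a 5 kb limit the exon share was 7.46% and the CpG-island share 0.990%. At a q-value of at most 0.01, 2297 peaks were left, with a median fold enrichment of 3.35. Exons of any transcript gave an exon share of 11.1%. The first to later intron ratio was 1.90 with the longest transcript and 1.499 at 10 to 100 kb. A promoter window of 3000 bp gave 83.0% of hosts with a promoter peak. Retention was 0.110% with overlap of 50% of both peaks and 0.274% with the summit inside the Mof+/- peak. Of 11 alternatives chosen after seeing the data, 9 stayed so; without Gm20388 the first to later ratio beyond 100 kb was 0.749, and without the 10 top hosts lymphoid transcription factor genes held 48.4 peaks per Mb. Every alternative computed for the pooled exon to intron and first to later intron ratios kept them above 1. A median of 14 fragments per summit limits calls of weak sites, and 1 list per genotype leaves the spread between animals unknown.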
